A study of Mus musculus with 2 samples.

Results

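The receptor tyrosine kinases *Mertk*, *Axl* and *Tyro3*, known together as the TAM receptors, were examined with the proteins that link phosphatidylserine to phagocytes, *Gas6*, *Pros1* and *Mfge8*, in sorted mouse retinal microglia. The 6 genes were chosen by name. The deposited count table listed 5 of them among its 13549 genes. *Tyro3* had no row; the smallest sum over both libraries of any listed gene was 6 reads, and *Tyro3* was taken as under the minimum of the table, although a row left out for another reason cannot be told apart from that. Microglia, which are the tissue macrophages of the retina and brain, came from retinas of CD11c-Cre-gfp;Rosa-TDTom mice at postnatal day 5. In these animals a Cre-GFP fusion is driven by the CD11c promoter, that of the integrin gene *Itgax*, and Cre switches on TdTomato permanently, so both groups carry both alleles and both express TdTomato. Cells with GFP and TdTomato, named Cd11c-active, were using the promoter when sorted, and 4041 of them gave 1 library. Cells with TdTomato alone, named Cd11c-lineage, would have used it earlier, and 5441 of them gave the other library. Both came from 8 retinas, with 4 female and 4 male. There was no replicate library and no batch label, so each difference below lies between 2 libraries and has no replicate check, and no p-value is given.

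Phosphatidylserine moves to the outer face of the membrane of a dying cell, where soluble proteins bind it and hold the cell to a phagocyte. GAS6 binds every TAM receptor, whereas protein S, encoded by *Pros1*, binds MERTK and TYRO3. Both ligands grip phosphatidylserine through a domain whose glutamates are carboxylated in a vitamin K dependent step. MFG-E8, encoded by *Mfge8*, binds phosphatidylserine through other domains and is recognised by alpha-v integrins rather than by TAM receptors. In the retina MERTK is best known from the pigment epithelium, which uses it to take up shed photoreceptor tips, and microglia use MERTK and AXL to clear dying neurons. The series title asks how CD11c expression in microglia relates to apoptotic cells, which is the question behind the comparison of receptors with ligands.

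The Cd11c-active library held 12943998 reads and the Cd11c-lineage library 13402625. Counts were scaled with TMM factors to CPM, the usual library-scaled read count, and a log2 ratio is always Cd11c-active over Cd11c-lineage. The median log2 ratio of the 13037 genes that had 20 or more reads in all was 0.01, and scaling to library totals lowers every ratio by 0.14. The libraries differed by far more than counting error: among 1978 genes whose reads over both summed to at least 800 and under 1600, the robust variance of the log2 ratio was 80.2 times the counting variance. Each ratio is given with a 95% counting interval and with a widened interval computed on reads divided by 80.2. The divisor computed in genes with 6400 or more reads was 150.1, and an interval from it is added where it differs in what it includes. Counting intervals cover counting error only, and PCR copies of a molecule were not told apart. The widened ones take in the spread over genes between these 2 libraries, and neither kind measures the spread between replicates. In the accounts of partner genes below, the interval after a ratio is the widened one. *Rn18s*, the small ribosomal RNA left after depletion, took 8.57% of the Cd11c-active library and 2.84% of the other. Leaving out ribosomal, mitochondrial, 7SK and 7SL genes before scaling moved the log2 ratio of every other gene alike, by -0.00013; this bears on the scaling only, and a part of the *Rn18s* difference in the ratio of a single gene was not tested. The microglial identity of both libraries was checked on 13 marker genes, all listed, which summed to 24515 CPM in Cd11c-active and 22919 CPM in Cd11c-lineage with 0 of 13 past 2-fold in either direction.

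Among the receptors, *Mertk* drew 6989 reads from the Cd11c-active library and 8290 from the other, which is 566 and 590 CPM. *Mertk* was thus higher in Cd11c-lineage by 1.04-fold. Its log2 ratio was -0.06, with a counting interval of -0.11 to -0.01 and a widened interval of -0.49 to 0.37. *Axl*, the receptor that answers to GAS6 alone, had 7365 and 7451 reads, or 597 and 530 CPM. After scaling *Axl* was the higher in Cd11c-active, by 1.12-fold, with a log2 ratio of 0.17 (counting 0.12 to 0.22, widened -0.26 to 0.60). The widened intervals of both receptors included 0 and did not reach 2-fold in either direction. The third receptor, *Tyro3*, best known from neurons, had no row. If its count was 0, that would allow up to 240.5 reads once 3 reads are multiplied by the divisor, or 19.5 CPM in Cd11c-active and 17.1 CPM in Cd11c-lineage. Both listed receptors lay well above these limits in both libraries.

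Among the ligands, *Gas6* drew 4716 reads from Cd11c-active cells and 4262 from Cd11c-lineage cells, which is 382 and 303 CPM. *Gas6* was 1.26-fold higher in Cd11c-active, a log2 ratio of 0.33 (counting 0.27 to 0.39, widened -0.22 to 0.90). *Pros1* had 4453 and 7664 reads, or 361 and 545 CPM. *Pros1* was the member that stood out in the other direction, 1.51-fold higher in Cd11c-lineage, with a log2 ratio of -0.60 (counting -0.65 to -0.54, widened -1.09 to -0.10). The widened interval of *Pros1* excluded 0, as it did for 18.2% of the 709 genes with at least 6400 reads and 3.10% of all tested genes. With the larger divisor of its own range of reads the interval was -1.28 to 0.10 and included 0, while 8.32% of those 709 genes then excluded it. *Mfge8* had 315 and 203 reads, or 25.5 and 14.4 CPM. Its log2 ratio of 0.82 corresponds to 1.76-fold more in Cd11c-active (counting 0.56 to 1.08), but the widened interval ran from -1.96 to 3.37. The Cd11c-lineage level of *Mfge8* lay under the limit of 17.1 CPM given above for an unseen gene, so its direction was not resolved at this depth.

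**Figure D1:**
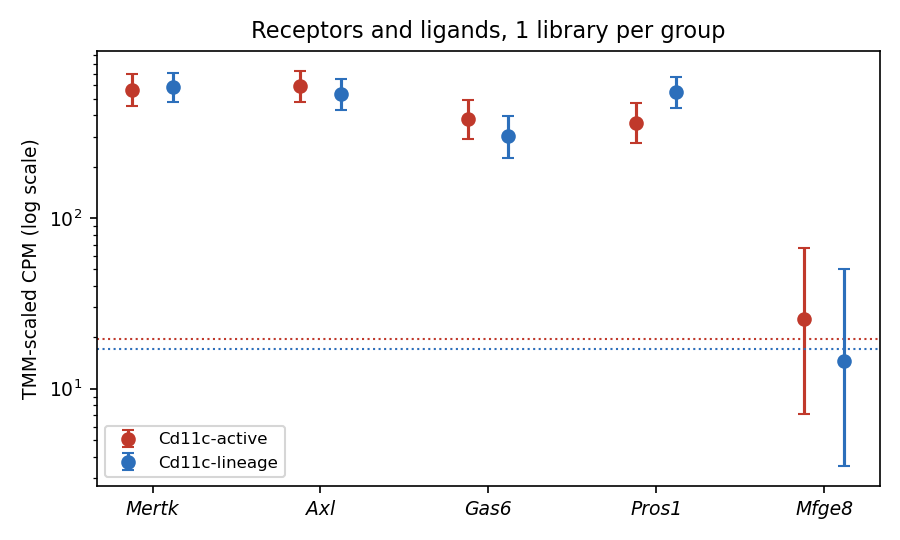
TMM-scaled CPM on a log axis for the 5 listed genes in the Cd11c-active (red) and Cd11c-lineage (blue) libraries; points are the single libraries, bars the 95% Poisson intervals on reads divided by 80.2, and dotted lines the level that a count of 0 allows in each library. *Mertk*, *Axl*, *Gas6* and *Pros1* lie between 303 and 597 CPM in both, and *Mfge8* lies near the dotted lines.

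None of the 5 listed genes was past 2-fold in either direction (0 of 5), against 44.9% of all genes with at least 20 reads, 9.57% of those with at least 1000 reads and 1.69% of those with at least 6400. The share falls with the number of reads, and 4 of the 5 had over 6400, so 0 of 5 is near the background of their abundance. Set against the 500 genes nearest to each in reads, *Pros1* stood at percentile 4.2, *Mertk* at 42.0, *Axl* at 70.0, *Mfge8* at 71.2 and *Gas6* at 82.8. The middle 80% of the neighbours of *Pros1* ran from -0.42 to 0.48, so *Pros1* at -0.60 lay outside that range. *Gas6*, *Mertk* and *Axl* lay inside the range of their own neighbours, and so did *Mfge8*, whose neighbours ran from -1.496 to 1.69.

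**Figure D2:**
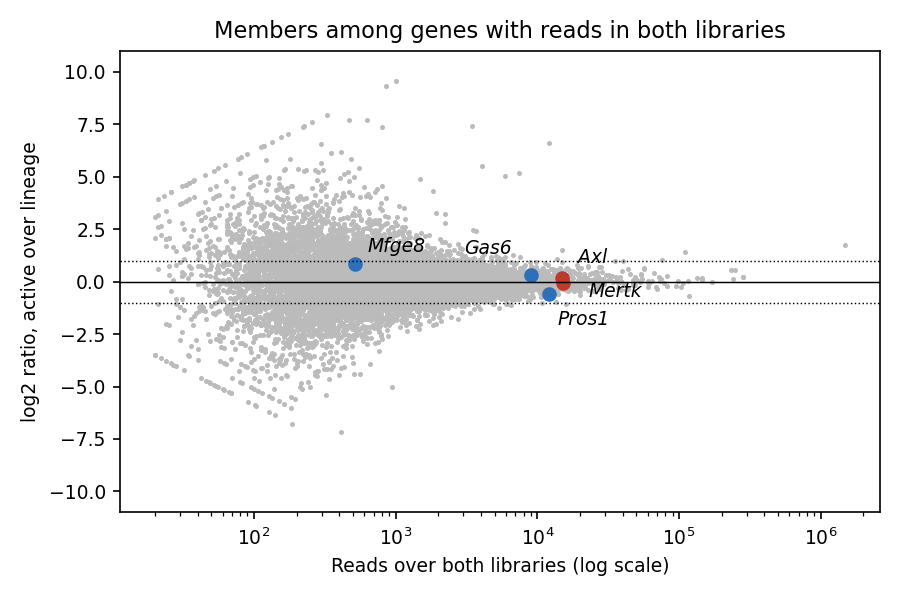
Log2 ratio of Cd11c-active over Cd11c-lineage against reads over both libraries (log axis) for every gene with at least 20 reads in all and at least 1 in each library (grey), with receptors in red and ligands in blue; dotted lines mark 2-fold. The grey cloud narrows as reads increase; *Pros1*, at -0.60, lies towards its lower edge and *Mfge8*, at 0.82 with 518 reads, lies within it.

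Receptors and ligands were then compared as groups. The receptors summed to 14354 and 15741 reads, which is 1163 CPM in Cd11c-active and 1120 CPM in Cd11c-lineage, a log2 ratio of 0.05 (widened -0.25 to 0.36) that became -0.08 under library totals and -0.04 relative to the microglial markers. The ligands summed to 9484 and 12129 reads, or 768 and 863 CPM, a log2 ratio of -0.17 (widened -0.53 to 0.19). Ligand reads per receptor read were thus 0.661 in Cd11c-active and 0.771 in Cd11c-lineage, a ratio that no scaling factor changes. The log2 difference of these ratios was -0.22 (widened -0.70 to 0.25), and a difference between receptors and ligands was not resolved. The sum of the ligands turned on *Pros1*: without it the log2 ratio was 0.36 (widened -0.19 to 0.90), and ligand reads per receptor read were 0.350 and 0.284.

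Ratios of 1 member to another within a library are free of the scaling. *Pros1* reads per *Gas6* read were 0.944 in Cd11c-active and 1.80 in Cd11c-lineage. Protein S transcript was therefore the less read ligand in the first library and the more read in the second, a 1.90-fold shift and a log2 difference of -0.93 (widened -1.69 to -0.17). *Pros1* reads per *Axl* read were 0.605 and 1.03, a log2 difference of -0.77 (widened -1.43 to -0.10). Of the 10 pairs among the 5 listed genes these 2 had widened intervals that excluded 0. With the trend in transcript length and GC content removed, *Pros1* per *Gas6* was at -0.66 with an interval of -1.43 to 0.09 that included 0, and *Pros1* per *Axl* at -0.67 with an upper end of -0.0009. The intervals are not adjusted for the number of pairs, and 0 of 10 excluded 0 with the divisor of the genes' own range. *Pros1* per *Mertk*, the receptor that protein S binds, was 0.637 and 0.924 (log2 difference -0.54, widened -1.20 to 0.13). *Gas6* per *Axl* was 0.640 and 0.572 (0.16, widened -0.55 to 0.89), and *Axl* per *Mertk* was 1.05 and 0.899 (0.23, widened -0.39 to 0.84).

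**Figure D3:**
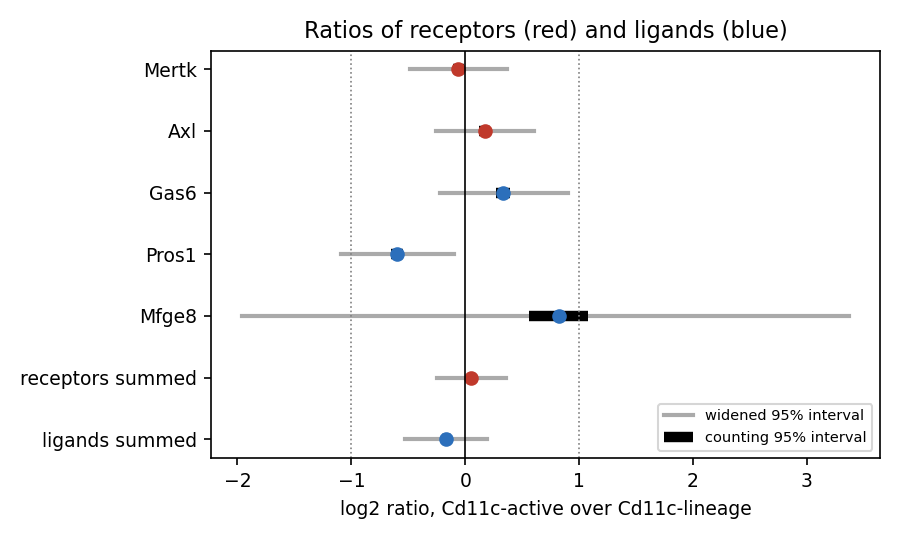
Log2 ratio of Cd11c-active over Cd11c-lineage for each listed receptor (red) and ligand (blue) and for their summed reads; black bars are 95% counting intervals, grey bars the widened intervals, and dotted lines mark 2-fold. The ligands fall on both sides of 0, from -0.60 for *Pros1* to 0.82 for *Mfge8*, and the widened interval of *Pros1* alone excludes 0.

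Levels of different genes were compared as CPM per kilobase of the longest annotated transcript. In Cd11c-active the order was *Gas6* at 149.9, *Axl* at 139.9, *Mertk* at 131.6, *Pros1* at 109.2 and *Mfge8* at 10.9. In Cd11c-lineage it was *Pros1* at 165.1, *Mertk* at 137.1, *Axl* at 124.3, *Gas6* at 119.0 and *Mfge8* at 6.2. *Pros1* moved from the lowest of the abundant members to the highest and *Gas6* from the highest to the lowest of them. In each library the widened intervals of these 4 abundant members all overlapped one another, those of the highest and the lowest included: in Cd11c-active they were 114.5 to 194.0 for *Gas6* and 83.2 to 143.0 for *Pros1*. Those of *Mfge8*, with upper ends of 28.5 and 21.5, lay under the lower ends of the other 4 in each library. With the union of exons as length, *Mertk* at 136.1 stood above *Pros1* at 133.4 and *Gas6* at 119.0 above *Axl* at 105.4 in Cd11c-lineage, and in Cd11c-active *Mertk* at 130.6 stood above *Axl* at 118.5.

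The ratios were also read against base composition, because the ratio of all genes moved with it. Among genes with at least 1000 reads, the median log2 ratio was -0.16 in the fifth with the lowest GC content of the transcript and 0.16 in the fifth with the highest. *Pros1* has 43.4% GC, *Mertk* 48.1%, *Axl* 54.2%, *Mfge8* 56.2% and *Gas6* 56.6%, so the GC content of the members has nearly the same order as their ratios. With the trend in transcript length and GC content removed, *Gas6* was at 0.10, *Axl* at 0.11, *Mertk* at -0.02, *Mfge8* at 0.57 and *Pros1* at -0.56. Removing the trend thus took most of the value of *Gas6* and little of that of *Pros1*, whose widened interval then ran from -1.06 to -0.07. With GC content alone removed *Pros1* was at -0.49, and its interval of -0.99 to 0.01 included 0.

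The promoters of the members were read for shared sequence features, and those of the receptor with the most reads and of the abundant ligands with ratios on opposite sides of 0 are shown. RefSeq gives a start-site window for all 6 genes on GRCm38.p6, another build than the one the counts were made on, and the 250 bases before the start site are printed 5′ to 3′ on the strand of the gene. Capitals mark the GC box, GGGCGG on either strand, the binding motif of Sp1-type factors; neighbouring boxes can overlap. The *Mertk* window is chr2:128698665-128698914 on the plus strand, that of *Gas6* chr8:13494536-13494785 on the minus strand and that of *Pros1* chr16:62854057-62854306 on the plus strand.
Mertk: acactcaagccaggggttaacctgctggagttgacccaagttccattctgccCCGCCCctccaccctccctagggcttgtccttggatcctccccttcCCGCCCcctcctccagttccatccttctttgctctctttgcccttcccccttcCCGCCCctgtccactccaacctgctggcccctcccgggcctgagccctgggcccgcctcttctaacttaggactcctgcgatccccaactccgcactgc
Gas6: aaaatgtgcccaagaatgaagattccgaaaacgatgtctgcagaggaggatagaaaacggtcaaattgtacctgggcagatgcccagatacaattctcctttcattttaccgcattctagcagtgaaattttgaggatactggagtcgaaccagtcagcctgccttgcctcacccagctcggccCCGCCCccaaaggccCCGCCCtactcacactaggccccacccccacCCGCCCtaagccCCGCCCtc
Pros1: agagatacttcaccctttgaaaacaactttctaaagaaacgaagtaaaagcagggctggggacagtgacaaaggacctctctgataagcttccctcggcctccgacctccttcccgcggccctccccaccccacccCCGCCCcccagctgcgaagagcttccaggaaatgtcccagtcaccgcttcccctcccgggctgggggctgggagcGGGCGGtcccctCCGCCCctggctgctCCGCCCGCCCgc
The GC box occurred 3 times before *Mertk*, 4 times before *Gas6*, 5 times before *Pros1*, 4 times before *Mfge8*, 3 times before *Tyro3* and 1 time before *Axl*. At least 1 stood in all 6 windows, against 32.7% of all 32851 windows of that length and 56.7% of the 12654 windows of genes listed in the count table. The window of *Tyro3*, which had no row, was the richest in GC at 73.2%, and that of *Gas6* the poorest at 54.8%. The core of the PU-box, GAGGAA on either strand, which the myeloid factor PU.1 recognises, occurred 1 time before *Axl* and 1 time before *Mfge8* and in 23.3% of all windows. It is shown in capitals for *Axl*, as the receptor of the pair that holds one, in a stretch of 30 bases at chr7:25788846-25788875 on the minus strand.
Axl: accaaggtctccTTCCTCctccccagcctc

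The partners of the members were described from 9 lists of 77 genes in all, of which 65 were listed and had at least 20 reads. Of these, 14 were past 2-fold higher in Cd11c-active and 5 past 2-fold lower, against 23.3% and 21.6% of all tested genes, and their median log2 ratio was 0.15 against 0.01. The widened interval excluded 0 above for 2 (*Furin* and *Trem2*) and below for 3 (*Itgb3*, *Adam17* and *Pik3r1*), against 2.19% and 0.913% of all tested genes. *Trem2*, *Adam17* and *Pik3r1* had over 6400 reads, and 18.2% of genes with at least 6400 excluded 0 in either direction. With the divisor of their own range of reads the interval still excluded 0 for *Furin* and *Pik3r1*, and for 8.32% of genes with at least 6400 reads.

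Of the integrins that bind MFG-E8, 0 of 3 were past 2-fold. *Itgb5*, the beta-5 subunit, had 21441 and 25661 reads for a log2 ratio of -0.07 (interval -0.31 to 0.16), and was thus far more read than *Mfge8* itself. *Itgb3*, the beta-3 subunit, had 1113 and 2518 reads for a ratio of -0.99 (interval -1.98 to -0.01), which passed 2-fold under library totals at -1.13. The receptor side of MFG-E8 was therefore well read in both libraries, and the beta-3 interval included 0 with the divisor of its own range (-2.12 to 0.15).

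Of the 4 listed genes of vitamin K dependent carboxylation and propeptide cleavage, which mature GAS6 and protein S, 2 were past 2-fold higher and 1 lower. *Furin*, a protease that removes propeptides and is known to act on many secreted proteins, had 3618 and 1938 reads for a log2 ratio of 1.09 (interval 0.35 to 1.87), which was 0.95 under library totals. *Vkorc1*, which recycles vitamin K, had 206 and 23 reads, a log2 ratio of 3.32, while its relative *Vkorc1l1* had 171 and 620. *Vkorc1l1* had a log2 ratio of -1.67 (interval -5.09 to 0.51), so the relatives lay on opposite sides at a depth that does not resolve either.

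Among 5 genes of receptor shedding, by which the outer part of a TAM receptor is cut off, 1 was past 2-fold higher and 1 lower. *Adam17*, the protease that sheds MERTK, had 3917 and 6495 reads for a log2 ratio of -0.54 (interval -1.08 to -0.01). *Adam10*, known to shed AXL, had 7504 and 10277 reads for a ratio of -0.27 (interval -0.66 to 0.14). *Rhbdf1*, a partner in ADAM17 maturation, had 110 and 341 reads for a ratio of -1.44 (interval -7.44 to 1.52). Both proteases thus had more reads in Cd11c-lineage, and with the divisor of its own range the interval of *Adam17* ran from -1.30 to 0.20. Of proposed further ligands of MERTK, *Lgals3* (galectin 3) had 463 and 114 reads for a ratio of 2.20 (interval -0.27 to 8.30), *Tulp1* had 81 and 285 and a ratio of -1.62 (interval -7.44 to 1.52), and *Tub* had no row.

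Of 17 tested genes of downstream signalling and engulfment, 1 was past 2-fold higher and 1 lower, 9 had a ratio above 0 and 8 below, and the median was 0.04. *Rac1*, the GTPase that drives the phagocytic cup, had 6512 and 5263 reads for a log2 ratio of 0.49 (interval -0.005 to 0.97). *Pik3r1*, the regulatory subunit of PI3 kinase, had 2720 and 5834 reads for a ratio of -0.91 (interval -1.55 to -0.31), which was -0.72 with the length and GC trend removed. *Pik3r1* kept an interval under 0 with the divisor of its own range (-1.82 to -0.09). Of 8 tested genes of the interferon receptor and the inhibitors that TAM signalling induces, 1 was past 2-fold higher and 0 lower, with a median of -0.02. *Jak1*, the kinase of the interferon receptor, had 4430 and 5780 reads for a ratio of -0.20 (interval -0.74 to 0.32), and *Twist1* and *Twist2* had no row.

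Of 6 tested nuclear receptors and partners known to drive *Mertk* or *Axl*, 1 was past 2-fold higher. This was *Nr1h2*, encoding the liver X receptor beta, with 773 and 262 reads for a log2 ratio of 1.75 (interval -0.03 to 4.42). *Nr1h3*, encoding the alpha form, and *Pparg* had no row.

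Of 9 tested genes of phosphatidylserine exposure, 3 were past 2-fold higher and 1 lower, with a median of 0.33. *Ano6*, a calcium-gated scramblase, had 894 and 504 reads for a log2 ratio of 1.01 (interval -0.50 to 2.78). *Xkr8*, the caspase-gated scramblase, had 163 and 86 reads for a ratio of 1.11 (interval -3.08 to 7.07). Both fell short of 2-fold under library totals, at 0.88 and 0.97. *Atp8a1*, a flippase that returns the lipid to the inner face, had 3962 and 4423 reads for a ratio of 0.03 (interval -0.57 to 0.60).

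Of 11 tested other receptors and bridging proteins for phosphatidylserine, 10 had a ratio above 0 and 4 were past 2-fold higher, with a median of 0.58 and 0 past 2-fold lower; a ratio above 0 was also that of 50.2% of all tested genes. Under library totals these counts were 9 above 0 and 3 past 2-fold, against 44.6% of all tested genes above 0, and 2 of the 11 had under 200 reads. *Stab1*, a scavenger receptor and the most read of them, had 19330 and 18987 reads for a log2 ratio of 0.21 (interval -0.05 to 0.48). *Trem2*, a lipid-sensing microglial receptor, had 7327 and 5584 reads for a ratio of 0.58 (interval 0.10 to 1.04; -0.05 to 1.25 with the divisor of its range). *Cd300lb* had 291 and 155 reads for a ratio of 1.09 (interval -1.62 to 4.65), and *Ager* had 147 and 59 and a ratio of 1.496 (interval -3.08 to 7.07). *Timd4*, *Havcr1*, *Stab2*, *Edil3* and *Apoh* had no row.

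**Figure D4:**
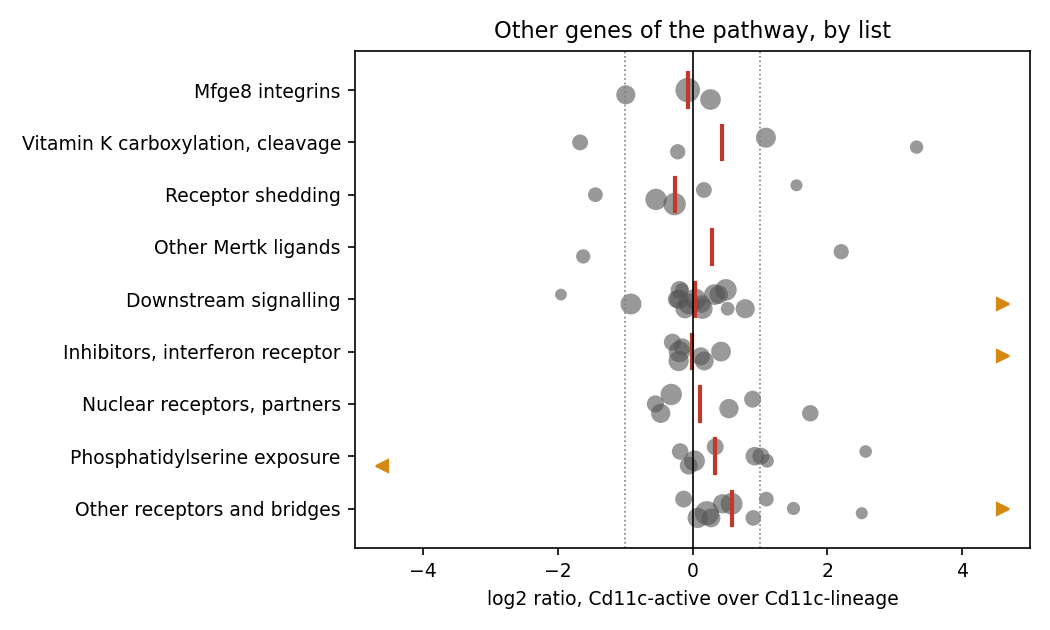
Log2 ratio of Cd11c-active over Cd11c-lineage for each listed gene of the 9 lists; point size grows with reads, red ticks are list medians over genes with at least 20 reads, dotted lines mark 2-fold, and orange arrowheads stand for genes with 0 reads in Cd11c-lineage (right) or Cd11c-active (left), placed at the margin without a value. Medians run from -0.27 for receptor shedding to 0.58 for the other receptors and bridges.

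Other cells of the retina also make these genes: vascular cells express *Gas6* and *Axl*, pericytes and astrocytes *Mfge8*, and neurons *Tyro3*. In bulk RNA, fewer cells of a type and less RNA per cell cannot be told apart. All 10 endothelial markers were past 2-fold higher in Cd11c-active and summed to 753 against 73.7 CPM, with 6 of 10 at 0 reads in Cd11c-lineage (*Cldn5*, *Flt1*, *Tek*, *Esam*, *Plvap* and *Emcn*). Their log2 ratio of sums was 3.35 (interval 2.51 to 4.30), and the intervals of 8 of 10 excluded 0. Among all tested genes 23.3% were past 2-fold higher and 2.19% had an interval above 0. The 6 genes at 0 were tested only through their 317 to 655 reads in Cd11c-active. A count of 0 in either library was that of 10.1% of genes with at least 200 and under 400 reads over both, and of 1.44% of those with at least 400 and under 800. Of 6 listed mural markers 5 had 0 reads in Cd11c-lineage (*Pdgfrb*, *Cspg4*, *Rgs5*, *Kcnj8* and *Abcc9*), *Notch3* had 0 in Cd11c-active, and the sums were 62.8 and 2.21 CPM. The lower end of the interval of that ratio was 1.35, and 1 of the genes, *Cspg4*, had an interval excluding 0. The 5 mural genes at 0 in Cd11c-lineage were seen only through their 12 to 380 reads in Cd11c-active, and 3 of them had under 100. Even among genes with at least 100 and under 200 reads over both libraries, 37.9% had a count of 0 in either. These lists move in the direction of *Gas6*, *Axl* and *Mfge8*, and their part in those ratios was not tested. The 5 listed border macrophage markers were all past 2-fold lower in Cd11c-active, summing to 21.2 against 131 CPM, with *Cd163*, *Lyve1*, *F13a1* and *Ms4a7* at 0 reads in Cd11c-active; 21.6% of all tested genes were past 2-fold lower. These 4 were tested only through their 42 to 254 reads in Cd11c-lineage and their intervals included 0, while that of *Mrc1* excluded it (-2.04, interval -4.57 to -0.31). The log2 ratio of the sums was -2.62 (interval -5.13 to -1.03). The 9 listed neuronal markers summed to 124 and 210 CPM, with 5 past 2-fold lower and 1 higher and *Gad1* at 0 reads in Cd11c-active. Their log2 ratio of sums was -0.76, with an interval of -1.66 to 0.06 that included 0, as did the intervals of all 9 genes. Both sums lie on the side of *Pros1*, and their part in its ratio was not tested. Müller glia, progenitor and astrocyte markers, 5 of 9 listed, summed to 2279 and 2431 CPM, nearly all from *Glul*. Without *Glul* the sums were 29.5 and 62.1 CPM, a log2 ratio of -1.07 with an interval of -2.83 to 0.69 that included 0. *Slc1a3*, with 73 and 642 reads, gave most of the Cd11c-lineage reads of that sum. Of the 5 genes 2 were past 2-fold higher and 1 lower, and *Rlbp1* had 0 reads in Cd11c-lineage. Of 8 pigment epithelium markers 3 were listed and *Mitf*, which microglia also express, held nearly all reads; the sums were 76.9 and 105 CPM, *Rdh5* and *Pmel* had 0 reads in Cd11c-active, and *Rpe65*, *Best1*, *Lrat*, *Rgr* and *Tyr* had no row. Monocyte and neutrophil markers, 4 of 6 listed, summed to 2.83 and 17.0 CPM, with *S100a8*, *S100a9* and *Plac8* at 0 reads in Cd11c-active and *Ccr2* in Cd11c-lineage. Of 6 dendritic cell markers 2 were listed, *Siglech*, a microglial marker too, and *Zbtb46*. *Zbtb46* alone had 200 and 0 reads, or 16.2 and 0 CPM. Its interval had a lower end of -2.23 and included 0, and its reads lie in the range where 10.1% of genes had a count of 0. *Flt3*, *Xcr1*, *Cd209a* and *Clec9a* had no row.

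The read assignment of the members bears on 2 of them. In the GENCODE annotation *Mertk* overlaps *Gm14011* on the opposite strand and *Gm23172* on its own, and *Gas6* overlaps *Tmem255b* on the opposite strand. None of these neighbours had a row in the table, and whether the counting used strand is not given in the sources used here. The authors' deposited table gives log2 fold changes of -0.20 for *Mertk*, 0.03 for *Axl*, 0.20 for *Gas6*, -0.73 for *Pros1* and 0.68 for *Mfge8*, the values obtained here under library totals.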

How the data were processed

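The table deposited by the authors gives whole-number raw counts for each gene in each library. Its other deposited columns, per the file headers, are the authors' log2 fold change and mean log2 CPM. Per the labels' protocols, RNA was depleted of ribosomal RNA and made into stranded libraries. The submitters' processing notes name cutadapt 3.5, STAR 2.7.9a, featureCounts 1.6.3, edgeR 4.0.16 and GRCm39, with no role. The annotation, strand setting and duplicate handling are not given in the sources used here. No per-sample column was left unmapped (0).

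Counts were scaled with TMM (edgeR 4.0.16, R 4.3.3; factors 0.954 in the Cd11c-active library and 1.05 in the other). To form log2 ratios 0.5 was added to the reads before division by the effective library size, and intervals are exact 95% Clopper-Pearson intervals; odds ratios of pairs used exact conditional intervals. With 1 library per group, edgeR's quasi-likelihood test and DESeq2 have no residual degrees of freedom, so "past 2-fold" means an absolute log2 ratio of at least 1 in genes that had 20 or more reads in all. The procedure was tested on simulated data. Lengths and GC content came from GENCODE vM21 (GRCm38), matched for 13499 genes (99.6%), and their trend was estimated by robust regression in the 4612 of them with 1000 or more reads. Python 3.11.15, numpy 2.4.6, scipy 1.17.1, pandas 2.3.3, statsmodels 0.14.6 and matplotlib 3.10.9 were used.

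The members, lists and tests were chosen with earlier results of these data known. Named genes are all members, the most read gene of each list, and genes with at least 200 reads past 2-fold or with a widened interval excluding 0; some genes that this rule and the search for like genes name are not reported here. Alternatives were other scalings, a prior of 2 reads, removal of the length and GC trend, other filters and folds, and sets without their most read member; the trends on GC or length alone, the union of exons and the pair ratios were chosen after seeing the data.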

Additional observations from a re-analysis of the deposited data

How the results depend on the processing

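The log2 ratios of *Mertk* (-0.20 to -0.02), *Axl* (0.03 to 0.18), *Gas6* (0.10 to 0.33), *Pros1* (-0.73 to -0.49) and *Mfge8* (0.57 to 0.82) kept their direction and stayed inside their widened intervals under all 8 alternatives that recompute them. The sum of the receptors ranged from -0.08 to 0.17 and was below 0 in 2 of 9. The sum of the ligands ranged from -0.30 to 0.36 and was above 0 in 1 of 9, without *Pros1*, its most read member (0.36). With at least 1000 reads in place of 20, genes past 2-fold numbered 251 higher and 191 lower against 3033 and 2818, since fewer genes were tested and the spread narrows with reads. Listed partners past 2-fold numbered 10 to 15 higher and 5 to 7 lower. No paired analysis was possible because each group has 1 library and the labels carry no replicate numbers. Among the 5 listed genes depth limits *Mfge8* most: its 315 and 203 reads lie around the 240.5 reads that a count of 0 allows.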

Other observations

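For each listed member the 3 genes nearest in log2 CPM over the 2 libraries were found, by Euclidean distance, which with 2 libraries measures only a like level and a like ratio. Nearest to *Mertk* were *Rpl4*, *Sdcbp* and *Rtn4* (distances 0.03 to 0.07), and among those nearest to *Axl* were *Wdr1* and *Pld4* (0.05 and 0.06). *Gas6* lay nearest to *Adcy7*, *Rpl7a* and *Ppp6r1* (0.04 to 0.05), and *Mfge8* to *Gstcd*, *Nol8* and *Rfk* (0.005 to 0.02). *Pros1* had the most distant neighbours, *Tnks2*, *Atp2b1* and *Mgat4a* (0.07 to 0.12), with log2 ratios of -0.64, -0.48 and -0.42.

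Among the partners, genes with 0 reads in either library were chosen for mention after their values were seen. *Socs1*, an inhibitor of cytokine signalling that TAM receptors induce, had 146 reads, all of them in Cd11c-active. Its widened interval had a lower end of -2.23 and included 0, and 37.9% of the genes that summed to at least 100 and under 200 reads had 0 in either library. *Gulp1* had 36 and 0 reads, *Adgrb1* 26 and 0, and *Xkr4* 0 and 45.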
